A study of Homo sapiens with 2 samples.

Results

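The genes described here are 10 regulators of the cell cycle, 4 cyclin-dependent kinases (CDK1, CDK2, CDK4 and CDK6) and 6 CDK inhibitors (CDKN1A, CDKN1B, CDKN1C, CDKN2A, CDKN2B and CDKN2C). They were taken by gene symbol from a table of 10836 protein-coding genes, and each symbol had 1 row. The CNBP RIP library held RNA recovered with an antibody against CNBP, a zinc finger protein that binds G-rich single-stranded nucleic acids (RIP, RNA immunoprecipitation), and it was set against RNA of the lysate (input). Both came from unmodified HCT116 cells, an established human colon cancer line, which were crosslinked with ultraviolet light and sonicated. There was 1 library per group and no library of a control antibody was used here, so the differences have no replicate check and no test was run. Levels are FPKM, fragments counted per 1000 bases of transcript in every 1000000 mapped, on build hg19.

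A CDK is active only when bound to a cyclin. CDK4 and CDK6 pair with D-type cyclins and phosphorylate the retinoblastoma protein in G1, CDK2 pairs with cyclins E and A around DNA replication, and CDK1 pairs with cyclins A and B and drives mitosis. Inhibitors of the INK4 family (CDKN2A, CDKN2B, CDKN2C) bind CDK4 and CDK6 and keep D-type cyclins off them, whereas those of the CIP/KIP family (CDKN1A, CDKN1B, CDKN1C) bind complexes of cyclin and CDK, those of CDK2 above all.

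At the deposited scale 7 of the 10 mRNAs had a lower level in the CNBP RIP than in the input, whereas 4 did after both libraries were rescaled to the mean of their summed FPKM. The inhibitors held both ends of the range, with log2 ratios from -3.00 to 1.96, and the kinases ran from -2.13 to 0.67. The log2 ratio was taken of FPKM plus 1, which understates the change of low genes. Of the 10 genes, 5 (CDK1, CDK4, CDKN1A, CDKN1C and CDKN2A) had a level in the RIP at least 1.5-fold lower (a log2 ratio of 0.58), as did 34.7% of all genes. Only CDK6 and CDKN2B (2 genes) were at least 1.5-fold higher, against 42.6% of all genes. At the 4-fold level 3 were lower (CDK1, CDKN1C and CDKN2A), beside 13.5% of all genes, and 0 were higher, beside 12.5%. CDKN2B, at a log2 ratio of 1.96, fell just short of the 4-fold rule of 2. CDKN1C was listed at 0 in the RIP, so its place in these counts depends on the added 1, and without it 4 genes were lower at 1.5-fold and 2 at 4-fold. After rescaling, 3 genes passed the 1.5-fold rule as higher and 3 as lower. The median log2 ratio of all genes was then 0.85, itself past 0.58, so the shares given above do not apply to these counts. The median log2 ratio was -0.79 for the 4 kinases and -0.52 for the 6 inhibitors, a difference of -0.26, and it was 0.28 over all 10836 genes.

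**Figure D1:**
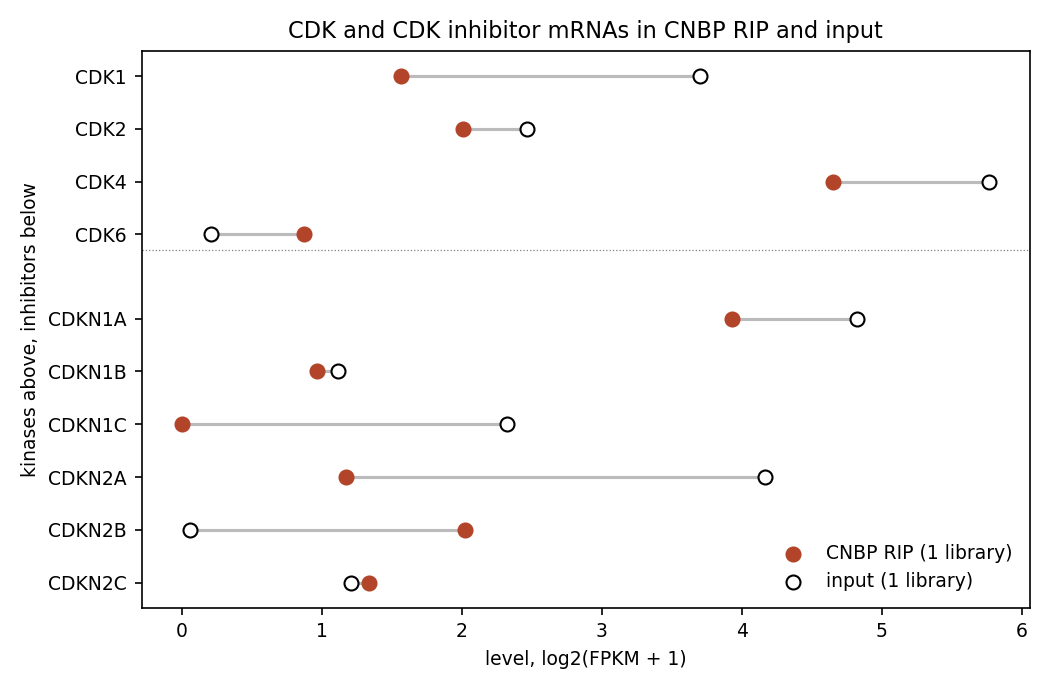
Level of each mRNA as log2(FPKM + 1) on the horizontal axis, in the CNBP RIP (filled points) and in the input (open points), 1 library each, joined by a line. CDK6, CDKN2B and CDKN2C lie farther right in the RIP, and the other 7 farther right in the input.

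The depth behind these levels was read from the values themselves. A recovered length was the smallest whole number of bases that turned the values of a gene in both libraries into numbers of at most 6 decimals, and the true exonic length is this number or a multiple of it. Multiplied by that length, the FPKM of 180 genes in the RIP and 14 genes in the input fell on one product, 2711 for the RIP and 159 for the input, which was taken as the worth of 1 read pair. By this measure the RIP was 17.0 times shallower, with about 368914 pairs against 6286557 in the input. The median gene had 4.21 apparent pairs in the RIP and 48.8 in the input. Intervals below are 95% intervals for counting error, with pairs rounded to whole numbers. Where the true length is a multiple, there were more pairs and the interval is narrower than given.

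CDK4, the kinase partner of cyclin D1 (locus at chr12:58141510-58149796), was the most abundant of the 10 mRNAs in both libraries. It had 24.1 FPKM in the RIP and 53.5 FPKM in the input, from 7.04 and 266 apparent pairs. The recovered length of CDK4 is a divisor of the true one, so these counts are too low and its intervals too wide. The FPKM in the RIP was 0.451 times that in the input (interval 0.179 to 0.937), and after rescaling, which multiplies each fold by 1.95, this interval ran from 0.349 to 1.83 and included 1. CDK4 made up 80.6% of the summed FPKM of the 4 kinases in the RIP and 76.3% in the input. The gene overlaps MARCH9 on the other strand by 916 bases, and MARCH9 had 8.80 FPKM in the RIP and 2.97 FPKM in the input. The kit was stranded, but the sources used here do not say whether the counting used strand.

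CDK6, the other partner of D-type cyclins (chr7:92234235-92465908), was the only kinase with a higher level in the RIP. Its levels were low, 0.828 FPKM in the RIP and 0.153 FPKM in the input, from 3.74 and 11.8 apparent pairs. The fold of FPKM was 5.43 (interval 1.34 to 18.7), whereas the log2 ratio, damped by the added 1, was 0.67. The quotient of CDK4 over CDK6 was therefore 29.1 in the RIP and 351 in the input. CDK6 also had the longest recovered length of the 10 genes, 12260 bases.

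CDK1, the mitotic kinase (chr10:62538089-62554610), was the kinase with the lowest ratio. It had 1.96 FPKM in the RIP and 12.0 FPKM in the input, a fold of 0.163 (interval 0.00290 to 0.652) that rested on 1.42 apparent pairs in the RIP against 148 in the input. Rescaled, its interval reached 1.27. CDK2, the S-phase kinase (chr12:56360553-56366568), had 3.02 FPKM in the RIP and 4.52 FPKM in the input, from 2.17 and 55.3 apparent pairs. Its fold was 0.670 with an interval from 0.0732 to 2.35, so a difference of either sign was not detectable at this depth. The order of both kinases differed between libraries, with a CDK1 over CDK2 quotient of 0.647 in the RIP and 2.65 in the input. The 6016 bases of the CDK2 locus all lie within the span of PMEL on the other strand, which was listed at 0 in the RIP and had 1.06 FPKM in the input.

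**Figure D2:**
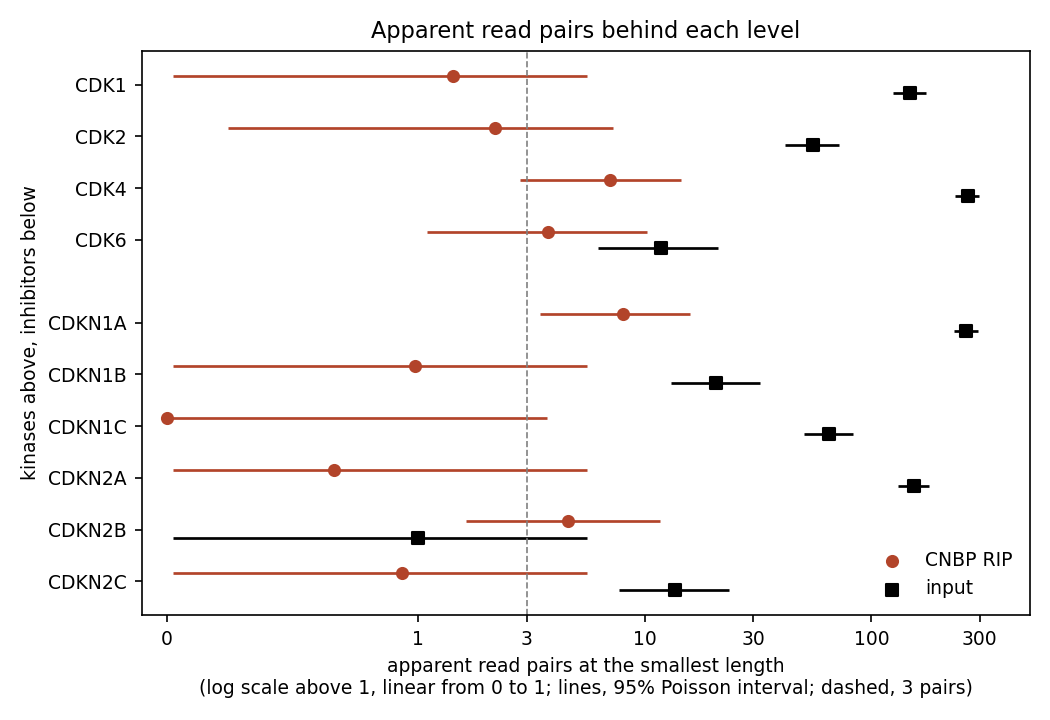
Apparent read pairs behind each level on the horizontal axis (log scale above 1, linear from 0 to 1), with 95% Poisson intervals as lines, in the CNBP RIP (red circles) and in the input (black squares). In the RIP, 6 of the 10 genes lie under the dashed line at 3 pairs, and in the input CDKN2B alone does. CDK4 is drawn with a divisor of its true length, which understates its pairs.

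CDKN1A, which encodes p21, the inhibitor induced by p53 (chr6:36644237-36655116), was the most abundant inhibitor in both libraries. It had 14.2 FPKM in the RIP and 27.3 FPKM in the input, from 8.01 and 262 apparent pairs. The fold was 0.521 (interval 0.222 to 1.04), and the upper end of this interval lay just above equality. CDKN1A held 67.7% of the FPKM of the 6 inhibitors in the RIP and 53.8% in the input.

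The other CIP/KIP mRNAs were scarcer. CDKN1B, which encodes p27 (chr12:12867992-12875305), had 0.951 FPKM in the RIP and 1.17 FPKM in the input, from 0.987 and 20.7 apparent pairs. Its interval for the fold ran from 0.0196 to 5.05, so no difference was detectable. CDKN1C, which encodes p57 from an imprinted locus (chr11:2904443-2907111), was listed at 0 in the RIP and had 4.00 FPKM, or 65.1 apparent pairs, in the input. A floor of 3 pairs over the library corresponds to 3.14 FPKM in the RIP, by which CDKN1C was at least 1.27-fold lower at the deposited scale, and after rescaling no lower bound above 1 was left. The log2 ratio of -2.32 depends on the added 1 and is no bound.

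The INK4 genes held the widest contrast among the members. CDKN2A, which encodes p16 and, from another reading frame, ARF (chr9:21967752-21995300), had 1.25 FPKM in the RIP and 16.9 FPKM in the input, from 0.664 and 154 apparent pairs. It was 13.6-fold lower in the RIP (fold 0.0736, interval 0.00278 to 0.626, or up to 1.22 after rescaling) and had the lowest log2 ratio of the 10 genes, -3.00. CDKN2B, which encodes p15 and is the neighbour of CDKN2A on the same strand (chr9:22002902-22009362), had 3.06 FPKM in the RIP and 0.0392 FPKM in the input. These values correspond to 4.58 apparent pairs in the RIP against 1.00 in the input, and give a fold of 78.0 with an interval from 9.53 to 4030. The log2 ratio was 1.96, the highest of the 10 genes. Overlapping loci were sought only among protein-coding genes, so noncoding genes on the other strand were not looked for at CDKN2B or any other member.

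The loci of CDKN2A and CDKN2B are separated by 7601 bases, and the CDKN2A over CDKN2B quotient was 0.408 in the RIP and 432 in the input. The order of both mRNAs in the RIP was not resolved, since the counting interval was 0.0476 to 10.5 FPKM for CDKN2A and 1.08 to 7.79 FPKM for CDKN2B. CDKN2A made up 5.94% of the RIP's summed inhibitor FPKM and 33.4% of that in the input. CDKN2C, which encodes p18 (chr1:51426417-51440305), differed little, with 1.53 FPKM in the RIP and 1.31 FPKM in the input. With 0.937 and 13.6 apparent pairs its interval for the fold ran from 0.0288 to 8.00.

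**Figure D3:**
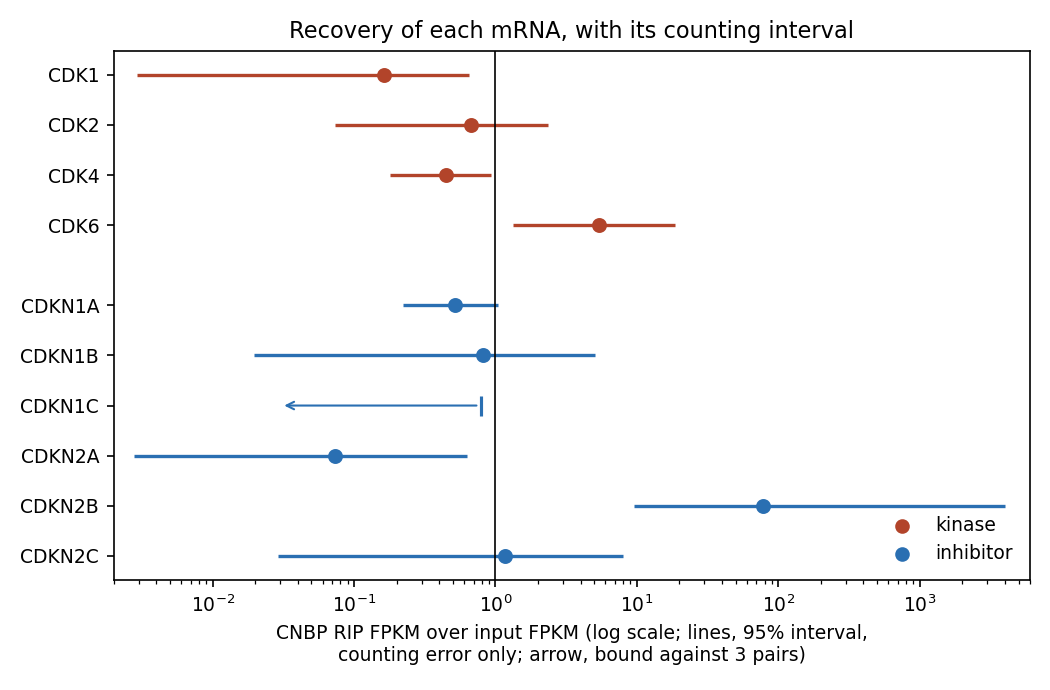
FPKM in the CNBP RIP over FPKM in the input for each gene, on a log scale, with 95% intervals for counting error as lines and the bound for CDKN1C as an arrow. At the deposited scale the intervals of CDK6 and CDKN2B lie above 1, those of CDK1, CDK4 and CDKN2A below 1, and those of CDK2, CDKN1A, CDKN1B and CDKN2C include 1. After rescaling to the mean of the sums, CDK6 and CDKN2B still lie above 1 and the other 7 intervals include it. The interval of CDK4 rests on a divisor of its true length and is too wide.

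The summed levels were carried by CDK4 and CDKN1A. The inhibitors summed to 21.0 FPKM and the kinases to 29.9 FPKM in the RIP, against 50.8 and 70.1 FPKM in the input. The quotient of inhibitors over kinases was 0.703 in the RIP and 0.724 in the input. CDK4 had a counting interval of at most 9.63 to 49.4 FPKM in the RIP and CDKN1A one of 6.14 to 28.02 FPKM, so this quotient is known only coarsely there. By family, the median log2 ratio was -0.90 for the 3 CIP/KIP genes and 0.13 for the 3 INK4 genes. These medians are the values of CDKN1A, which was at 0.0241 after rescaling, and of CDKN2C, which rested on 0.937 apparent pairs in the RIP. In the RIP the order of levels was CDK4, CDKN1A, CDKN2B, CDK2, CDK1, CDKN2C, CDKN2A, CDKN1B, CDK6 and CDKN1C, and the counting intervals of each pair of neighbours in this order overlapped. The input had the order CDK4, CDKN1A, CDKN2A, CDK1, CDK2, CDKN1C, CDKN2C, CDKN1B, CDK6 and CDKN2B. Among neighbours in this order the intervals overlapped for CDK2 with CDKN1C, CDKN2C with CDKN1B and CDK6 with CDKN2B. Spearman's rho between both orders was 0.491 over the 10 genes.

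The ratio moved with transcript length across the whole table. Spearman's rho of ratio and length was 0.418 over 7519 genes with a recovered length and a mean of at least 1 FPKM, a description across genes that share both libraries. Median log2 ratios ran from -0.93 in the shortest of 10 bins (202 to 1167 bases) to 1.69 in the longest (9098 to 24675 bases). Set against genes of like length, CDK6 differed from the median of its bin by -1.02 on the log2 scale, at percentile 21.7, although its own ratio was above 0. The mean of CDK6, 0.490 FPKM, lay under the minimum of the binned genes, so its place there depends on the added 1. With a pseudocount of 0.1 the log2 ratio of CDK6 was 1.88, and the bins were not computed at that setting. CDKN2B, with 4058 bases, differed from the median of its bin by 1.72, at percentile 86.6. CDKN1A (1525 bases) lay near the median of its bin, at percentile 49.3, whereas CDKN2A was at 14.8, CDKN1C at 14.3 and CDK1 at 25.9. The 792 bases recovered for CDK4 are shorter than its coding sequence and so a divisor of the true length, and its bin is not read. Other lengths may be divisors too, except those of CDKN1C and CDKN2B, where no multiple stays within the span of the locus. The part of length in these ratios was not tested.

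**Figure D4:**
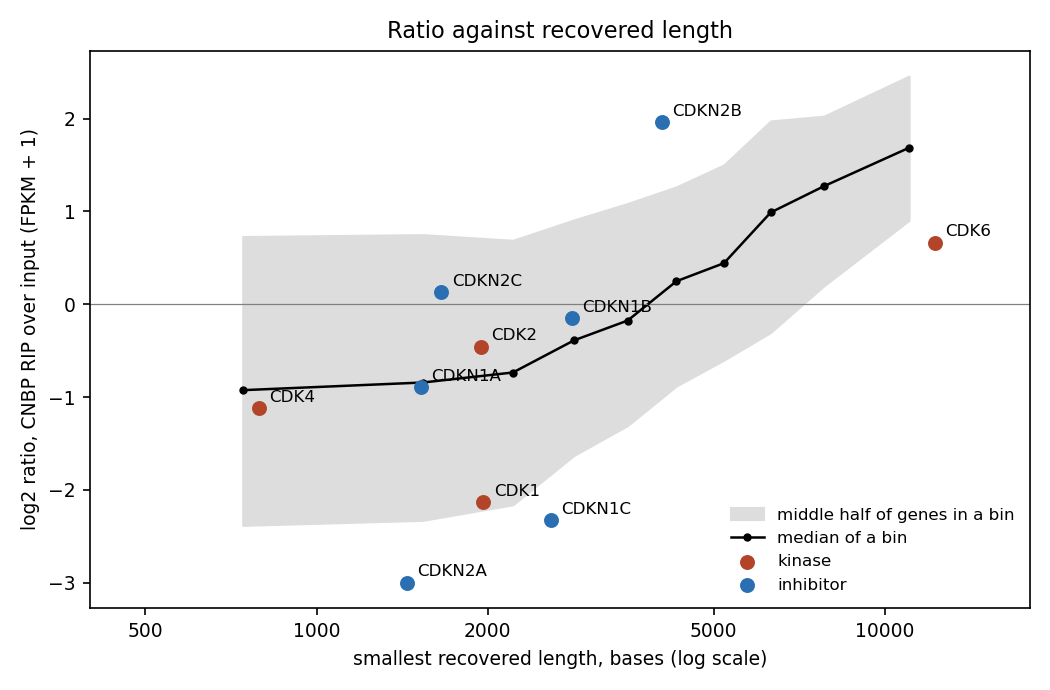
Log2 ratio of CNBP RIP over input (FPKM + 1) against the smallest recovered length on a log scale, with the median (black line) and the middle part between quartiles (grey) of genes in 10 bins, and the kinases in red and inhibitors in blue. CDKN2B lies above the grey area, CDKN2A and CDKN1C lie below it, CDK6 lies to its right and lower, and CDKN1A lies near the line. CDK4 is drawn at 792 bases, a divisor of its true length.

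CNBP is known to prefer GGAG cores in RNA, so the first 50 bases after each start site of the members were searched for GGAG on the transcript strand (RefSeq, GRCh38.p14). At least 1 GGAG was present at 5 of the 13 start sites of 8 members (38.5%), near the 36.6% of all 35116 start sites, and GGAG was the only motif searched. These are descriptions of letters and not of binding. The windows that hold a match are shown to place the motif in genes with lower and higher levels in the RIP, with GGAG in capitals, 5′ to 3′ along the transcript.
CDK1 (plus strand, chr10:60778498-60778527): ctcttggaaattgagcGGAGagcgacgcgg
CDK6 (minus strand, chr7:92836524-92836553): aggccgcggacacgtgcGGAGagccgactg
CDKN1A (plus strand, chr6:36678734-36678763): agtcagttccttgtGGAGccGGAGctgggc
CDKN2A (minus strand, chr9:21974819-21974848): cagcgggcggcggGGAGcagcatGGAGccg
CDKN2C (plus strand, chr1:50960765-50960794): gccatggtagacatgGGAGagacgaggaag

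CDK1, CDKN1A and CDKN2A, all lower in the RIP, had a match at 1 start site each. So did CDK6, which was higher, and CDKN2C, which differed little. The match was at 1 of 2 start sites for CDK1, CDK6 and CDKN2A and at 1 of 3 for CDKN2C. Which start sites were used in these cells was not determined. CDKN2B, with the highest ratio, and CDK4 and CDKN1B had no GGAG within these 50 bases, which says nothing of the rest of their transcripts. CDK2 and CDKN1C were not searched.

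The genes that act on these kinases and inhibitors were described from lists of the CDK network. Of the 3 genes of the CDK-activating kinase, which phosphorylates the activation loop of CDKs, all 3 had lower levels in the RIP by at least 1.5-fold, as did 34.7% of all genes. CCNH, its cyclin subunit, had 0.880 FPKM in the RIP and 7.78 FPKM in the input, MNAT1, its assembly factor, had 1.21 and 9.64 FPKM, and CDK7, its kinase, had 5.12 and 21.2 FPKM. CCNH rested on 1.51 apparent pairs in the RIP and MNAT1 on 0.345, and the interval of the MNAT1 fold (0 to 1.39) included 1. At the deposited scale the interval was 0.0180 to 0.546 for CCNH and 0.0851 to 0.622 for CDK7, which had 4.57 pairs in the RIP. After rescaling, which multiplies each fold by 1.95, the intervals of CCNH and CDK7 also included 1. Among 5 genes of the inhibitory phosphorylation switch, 3 were higher and 1 was lower by at least 1.5-fold, beside 42.6% and 34.7% of all genes. WEE1, the kinase that restrains CDK1, had 6.45 FPKM in the RIP and 0.533 FPKM in the input, a fold of 12.1 (interval 6.67 to 21.6). Its recovered length was 9239 bases, and among genes of like length its log2 ratio was at percentile 70.8. The opposing phosphatases CDC25A (log2 ratio 1.77) and CDC25B (1.08) were also higher, CDC25C was at -0.34, and PKMYT1, the other inhibitory kinase, was at -1.23.

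Cyclins differed among themselves, with 2 of 8 higher and 4 lower (42.6% and 34.7% of all genes) and a median log2 ratio of -0.66. Of the 8 genes, 4 rested on under 3 apparent pairs in the RIP. CCND2, counted as higher, had 1.97 pairs in the RIP and 0.992 in the input. The fold intervals of CCND3 (0.00479 to 1.09) and CCNE1 (0.0507 to 1.59), both counted as lower, included 1. CCND1, which encodes cyclin D1, the partner of CDK4 and CDK6, was the highest at 67.8 FPKM in the RIP and 14.9 FPKM in the input, a fold of 4.57 (interval 3.71 to 5.60). CCNB1, the mitotic partner of CDK1, was the lowest at 13.6 FPKM in the RIP and 97.2 FPKM in the input, a fold of 0.140 (interval 0.0752 to 0.243). At the deposited scale CDK1 and CCNB1 thus both had lower levels in the RIP, whereas CDK4 and CCND1 differed in opposite directions. After rescaling, the intervals of CDK1 (0.00566 to 1.27) and CDK4 (0.349 to 1.83) included 1, so the direction of neither kinase was resolved.

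Of 14 measured genes among 17 other CDKs, 6 were higher and 4 lower (42.6% and 34.7% of all genes), median 0.50. CDK13, a kinase of the polymerase tail, was the highest at 7.32 FPKM in the RIP and 0.240 FPKM in the input, and CDK5, the neuronal kinase, the lowest at 0.701 and 15.9 FPKM. CDK11A and CDK11B are near-identical copies and their values are uncertain. CDK3, CDK14 and CDK15 were not analysed here. Of 7 other inhibitors and CDK-binding adaptors, 2 were higher and 4 lower (42.6% and 34.7% of all genes), median -1.12. CDC37, the co-chaperone that delivers CDK4 to HSP90, was the highest at 417 FPKM in the RIP and 95.4 FPKM in the input, and CKS2, a CDK-binding subunit, the lowest at 14.0 and 217 FPKM. CDKN2D, the fourth INK4 gene, named after its values were seen, had 20.4 FPKM in the RIP and 6.03 FPKM in the input.

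Downstream of the kinases, both measured pocket proteins had higher values, RBL1 at 1.86 FPKM in the RIP and 0.198 FPKM in the input and RBL2 at 2.28 and 0.257 FPKM. They rested on 2.05 and 2.06 apparent pairs in the RIP, and the interval of each fold, 0.771 to 59.5, included 1. RB1 was not analysed here. E2F and DP genes encode the transcription factors that pocket proteins hold in check. Of these 10 genes, 4 were higher and 2 lower (42.6% and 34.7% of all genes). Among those above 0 in both libraries, E2F2 was the highest, at 5.62 FPKM in the RIP and 1.34 FPKM in the input. E2F4 was the lowest, at 16.4 and 25.1 FPKM, and the interval of its fold, 0.412 to 1.01, included 1. E2F5, the other gene counted as lower, was listed at 0 in the RIP and had 1.38 apparent pairs in the input. Its place in the count thus depends on the added 1. Of 8 ubiquitin ligase genes that turn over CDK inhibitors and cyclins, 4 were higher and 3 lower (42.6% and 34.7% of all genes). Those above 0 in both libraries ran from FBXW7 at a log2 ratio of 2.10 to SKP1 at -3.27. Among genes of like recovered length FBXW7 was at percentile 64.4 and SKP1 at 0.466.

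**Figure D5:**
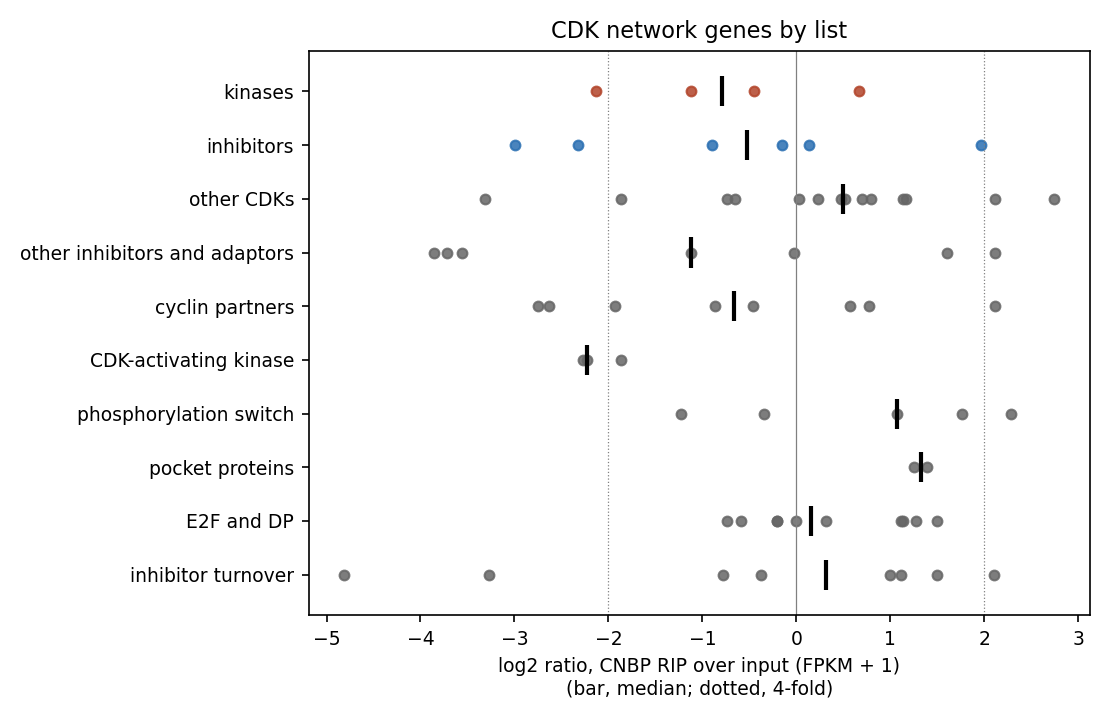
Log2 ratio of CNBP RIP over input (FPKM + 1) of each gene, with lists of the CDK network one above the other, the list median as a black bar and 4-fold as dotted lines. The CDK-activating kinase has its 3 genes below 0, both measured pocket proteins lie above 0, and all other lists have genes on both sides.

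Markers and library totals put these values in context. Of 9 colon epithelial markers 6 were measured. Of these, 1 passed the 1.5-fold rule as higher and 4 as lower (42.6% and 34.7% of all genes). CDH1 had 3.88 FPKM in the RIP and 0.415 FPKM in the input, and KRT19 had 360.1 and 371 FPKM. KRT18 was at 199 FPKM in the RIP and 564 FPKM in the input, and EPCAM was at 21.2 and 109 FPKM. Of 5 markers of other cells only COL1A1 was measured, at 4.92 FPKM in the RIP and 0.199 FPKM in the input. FPKM summed to 109684 in the RIP and 214387 in the input. Rescaling both libraries to the mean of these sums adds 0.97 to a log2 ratio without a pseudocount and puts the median of all genes at 0.85. CDKN1A was then at 0.0241 and the kinase median at 0.0651, so the sign of both depends on the scaling, as do those of the inhibitor median, CDK2 and CDKN1B. CDKN2C changed sign on centring on the median gene, to -0.0889.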

How the data were processed

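RNA of a CNBP immunoprecipitate and of input was sequenced from HCT116 cells, 1 library each, so p-values were not computed. The authors deposited FPKM per gene. Per the submitters' processing notes, HISAT2, StringTie, cutadapt and FastQC were used with build hg19; versions are not given in the sources used here. The table keeps genes that reach a minimum FPKM in at least 1 library, so genes scarce in both could not be seen. FPKM divides by transcript length, and coverage along transcripts was not measured here.

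Log2 ratios were log2(RIP FPKM + 1) minus log2(input FPKM + 1), the formula of the study. Ratios of 0.58 and 2 (1.5-fold and 4-fold) were rules of size. For percentiles, the 7519 genes with a recovered length and a mean of at least 1 FPKM were split into 10 bins of that length. A length was recovered for 9482 genes (87.5%). Apparent read pairs were FPKM times length divided by the worth of 1 pair. That worth is an estimate from the values, since 46 genes in the RIP lay at 0.5 of it. Poisson intervals and conditional exact (Clopper-Pearson) intervals of the fold are at 95%, and the floor was 3 pairs. They cover counting error only, since reads without molecular identifiers are not independent molecules. Recovery of lengths, and of the worth of 1 pair in a shallow library, was tested on simulated data. The worth in a deep library such as the input was not tested, and here it rested on 14 genes.

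The genes named were all members, the highest and lowest ratio above 0 in both libraries of each network list, and every gene of lists of up to 5. Members and lists were chosen with earlier results of these data known. Alternatives were pseudocounts of 0.1, 0.5 and 5, rescaling, centring, comparison with genes of like span or length, filters on low values and summing of rows that share a symbol. Python 3.11.15, numpy 2.4.6, pandas 2.3.3 and scipy 1.17.1 were used.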

Additional observations from a re-analysis of the deposited data

How the results depend on the processing

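No paired analysis was possible because each group had 1 library. CDK1, CDK4, CDKN1C, CDKN2A and CDKN2B kept their sign under every alternative that gave them a value. CDK2 and CDKN1B each kept theirs in 7 of 11 alternatives and CDKN2C in 10 of 11. Rescaling to the mean of the sums put the median of the kinases at 0.0651, the median of the inhibitors at 0.19, CDKN1A at 0.0241 and the number of members at least 1.5-fold lower at 3. Rescaling without the 20 most abundant genes of either library gave -0.0352, 0.10 and 3 for the kinases, the inhibitors and that number. Against genes of like span the median of the inhibitors was 0.10 and CDK6 was at -0.88, and against genes of like recovered length they were at 0.0918 and -1.02, with CDK4 binned at a divisor of its length. CDK6, with a mean of 0.490 FPKM, lay under the minimum of the genes compared, so both of its values depend on the added 1. At 4-fold, 1 member was higher with pseudocounts of 0.1 and 0.5, after both rescalings and against genes of like span. The number lower at 4-fold ran from 0 (pseudocount of 5, or at least 3 apparent read pairs in both libraries) to 3. Only 1 member was at least 1.5-fold higher with a pseudocount of 5, after centring on the median gene, with a mean FPKM of at least 1, or with at least 3 apparent read pairs in both libraries. That last filter left 3 members, CDK4, CDK6 and CDKN1A, of which 2 were at least 1.5-fold lower. With CDKN1A the only inhibitor, it turned the difference of kinases minus inhibitors to 0.67. It and the comparison with genes of like recovered length were chosen after seeing the data. The difference was between -0.12 and -0.70 under the other alternatives. A filter also lowers a count by leaving fewer genes, and the cause of these shifts was not tested. Depth limits these values in the RIP, where 6 of the 10 members rested on under 3 apparent read pairs.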
